A study of Mus musculus with 2 samples.

Results

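The genes described here encode 10 neuropeptides of the spinal cord outside the opioid family: Tac1, Tac2, Npy, Sst, Cck, Nts, Gal, Nmu, Grp and Calca. They were taken as a fixed list of names from the 32285 genes of the feature table, and all 10 were measured in both libraries. Each was followed in excitatory barcodes, inhibitory barcodes and the other barcodes of each library. An excitatory barcode had at least 1 UMI of Slc17a6, the vesicular glutamate transporter of spinal excitatory neurons, and none of Gad1, Gad2, Slc6a5 or Slc32a1. An inhibitory barcode had at least 1 UMI of those 4 genes for GABA and glycine synthesis or transport, and none of Slc17a6.

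Nuclei came from 3 male iNeuroD1GFP mice, labelled 8 weeks of age, with a spinal cord injury made at postnatal day 60. Tamoxifen (TAM) was given on days 5 to 8 after injury, at a daily 100 mg/kg. Both groups share this genotype, injury and treatment, and no uninjured or untreated group is used here. Cords were taken 10 days after injury and parted into an injury core and a distal region, which the extraction protocol calls peri-injury, and each region gave 1 library of nuclei by 10x Genomics 3′ sequencing. The labels do not say if tissue of the mice was pooled, they do not name the cells in which tamoxifen acts, and no value has a replicate, so no p-value is given.

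Over 16362 barcodes the core library had 30469263 UMIs and a median depth of 1303, and over 7452 barcodes the distal library had 19049572 UMIs and a median depth of 1743. The 2 libraries shared 38 barcode sequences. Core barcodes comprised 1145 excitatory and 3296 inhibitory ones, and distal barcodes comprised 477 excitatory and 868 inhibitory ones. A further 9453 core and 848 distal barcodes had no UMI of the transmitter genes but at least 3 neuron markers and of no other cell type, and are called neuron-marker barcodes. Barcodes defined in the same way by oligodendrocyte markers numbered 131 in the core library and 1934 in the distal library. They serve as the measure of free RNA, since oligodendrocytes should lack these peptides. The summed level of 8 oligodendrocyte markers was 339 CPM (UMIs of the genes per 1000000 UMIs of the group) in core excitatory barcodes and 3656 CPM in distal excitatory barcodes, against 9962 CPM in distal oligodendrocyte barcodes, so distal transmitter barcodes carried much myelin RNA. Hoxd11, a gene of the posterior Hox code, had 598 UMIs in the core library and 0 in the distal library. Cord level and injury region therefore moved together and cannot be told apart in any comparison of the libraries.

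Neuropeptides are cut from precursor proteins in the secretory pathway, stored in dense-core vesicles and released to act on G-protein-coupled receptors. In the dorsal horn they mark classes of interneurons that carry pain, itch and touch. Tac1 (substance P and neurokinin A), Tac2 (neurokinin B), Sst, Cck, Nts, Grp and Nmu are known chiefly from excitatory dorsal horn neurons of the mouse, Npy and Gal chiefly from inhibitory ones, and Calca, the gene for calcitonin gene-related peptide, from sensory ganglion neurons and motor neurons.

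Promoter sequence from RefSeq (GRCm38.p6) was available for 9 of the 10 genes and was searched for TGACGTCA, the cyclic AMP response element (CRE) known from the Sst promoter, on both strands. The window ran from 250 bases before to 50 bases after the gene start. Of 32851 promoters, 1.55% held it, and of the 9 genes it was found in Sst alone, 48 bases before the start. The shorter motif TGACG, which lies within the longer one, was in 17.8% of all promoters on either strand and in those of Sst, Nmu, Cck, Tac1, Calca and Nts, and these letters were not in the windows of Npy, Tac2 and Gal. The stretches below, 5′ to 3′ on the strand of each gene, are shown for Nmu and Tac2, the genes with the most nuclei holding several UMIs in the distal library, for Cck, the gene past 2-fold between core excitatory and inhibitory barcodes, and for Sst, which has the whole element. Capitals mark the motif on either strand, and a match describes letters only.
Nmu, chr5:76363789-76363938, minus strand: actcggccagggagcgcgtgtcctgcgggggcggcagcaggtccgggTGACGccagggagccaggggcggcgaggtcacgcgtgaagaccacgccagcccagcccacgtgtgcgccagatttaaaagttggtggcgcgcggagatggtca
Tac2, chr10:127724328-127724477, plus strand: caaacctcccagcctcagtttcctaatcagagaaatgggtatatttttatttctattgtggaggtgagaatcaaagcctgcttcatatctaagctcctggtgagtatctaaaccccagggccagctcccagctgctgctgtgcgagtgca
Cck, chr9:121495695-121495844, minus strand: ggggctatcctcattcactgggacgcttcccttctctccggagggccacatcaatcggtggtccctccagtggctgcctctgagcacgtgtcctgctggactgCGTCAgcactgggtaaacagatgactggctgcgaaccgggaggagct
Sst, chr16:23890874-23890903, minus strand: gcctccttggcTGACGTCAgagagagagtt

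All 10 genes were sparse. Together they made up 49.1 CPM of the core library (95% interval 46.6 to 51.6) and 75.3 CPM of the distal library (71.4 to 79.3), where intervals here and below are exact and cover counting error only. In the core library the sum was 46.4 CPM in excitatory barcodes, 34.5 CPM in inhibitory barcodes, 58.1 CPM in neuron-marker barcodes and 40.7 CPM (16.4 to 83.9, from 7 UMIs) in oligodendrocyte barcodes. In the distal library it was 72.1 CPM (60.8 to 84.9) in excitatory barcodes, 57.1 CPM (49.5 to 65.6) in inhibitory barcodes and 124 CPM (107 to 142) in neuron-marker barcodes, against 63.5 CPM (55.2 to 72.7) in oligodendrocyte barcodes. The summed peptide level of distal excitatory and inhibitory barcodes thus lay within the counting error of the free-RNA level, while that of the neuron-marker barcodes was 1.95 times it (1.60 to 2.37). Over distal excitatory, inhibitory and neuron-marker barcodes the summed level of the 8 neuron markers was compared with that in oligodendrocyte barcodes. It was 3.84 times higher in excitatory, 4.10 times higher in inhibitory and 5.54 times higher in neuron-marker barcodes. These markers also defined the groups, since neuron-marker barcodes had to hold several of them and oligodendrocyte barcodes could not. The 5.54 is therefore partly set by that choice. The low oligodendrocyte level it leaves also raises the excitatory and inhibitory ratios. None of these ratios is an independent yardstick for the peptide ratios.

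**Figure D1:**
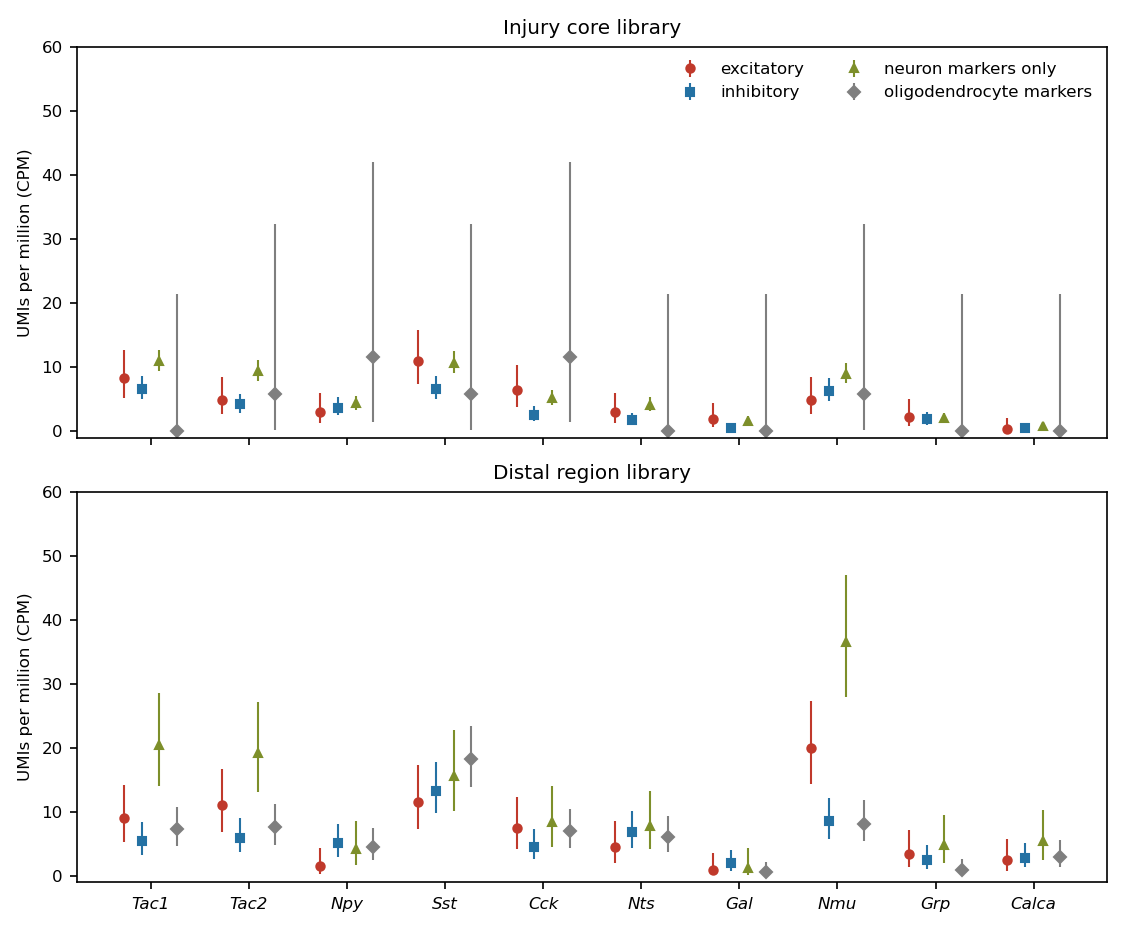
Level of each neuropeptide gene in CPM (vertical axis) in excitatory, inhibitory, neuron-marker and oligodendrocyte barcodes of the core library (top) and the distal library (bottom), with exact Poisson 95% intervals from counting error. Distal Nmu stands highest, at 36.6 CPM in neuron-marker barcodes, and most other distal genes lie near their own oligodendrocyte level.

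Repeated UMIs of a gene in 1 nucleus lay in neuronal barcodes more often than the UMIs of all genes did in the distal library, but not in the core library. Summed over the genes, 65 of the 69 core instances of a nucleus with 2 or more UMIs of a gene, and 105 of the 111 distal instances, fell in neuronal barcodes, meaning those with a transmitter UMI or at least 3 neuron markers. Neuronal barcodes were 89.4% of core and 53.3% of distal barcodes and held 94.3% and 71.0% of the UMIs of these libraries. Mixed barcodes had no transmitter UMI but at least 3 markers each of more than 1 cell type. They counted as neuronal where 1 of these types was neuron. They held 51 of the 111 distal instances, 32 with neuron markers leading and 19 with glial markers leading, and 4 of the 69 core ones. Mixed barcodes were 29.5% of distal and 2.45% of core barcodes, and doublets were left in. Nmu supplied 51 of the distal instances and 20 of the core ones. Tac2 had 12 such nuclei in the core library and 17 in the distal library, Tac1 had 14 in the core library and 12 in the distal library, and each of the other 7 genes had at most 6 in the core library and 9 in the distal library. Distal Gal had none, with 1 UMI in each of 16 nuclei.

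**Figure D2:**
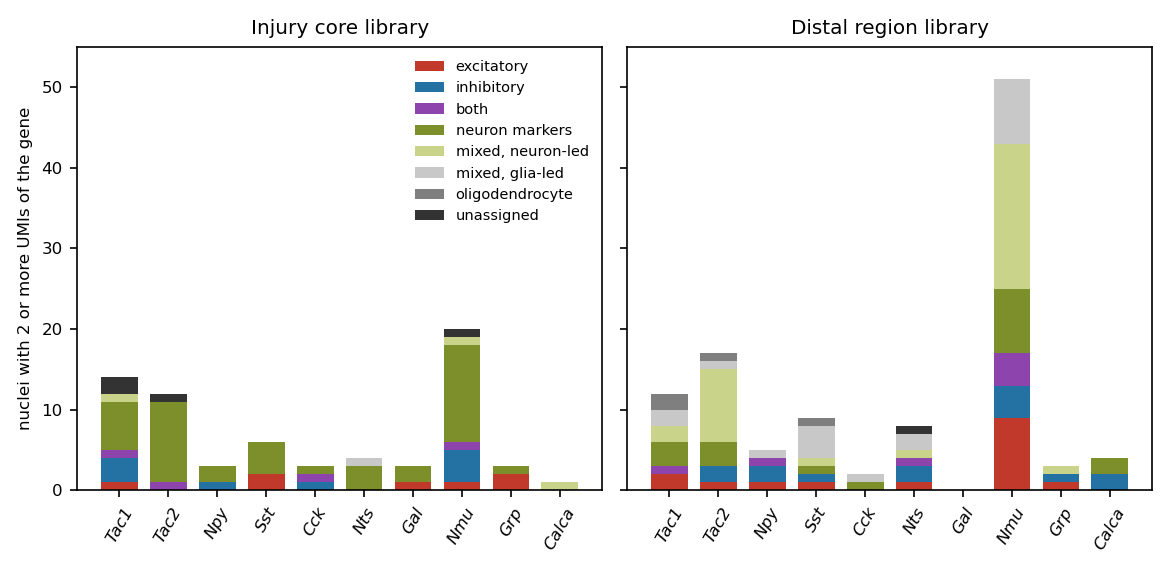
Number of nuclei with 2 or more UMIs of each gene (vertical axis), stacked by barcode group, in the core library (left) and the distal library (right). Nmu leads the distal library with 51 nuclei. None of them are oligodendrocyte barcodes, but 26 are mixed barcodes, 18 with neuron markers leading and 8 with glial markers leading.

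Nmu encodes neuromedin U, which acts on Nmur1 and Nmur2, and Nmur2 is a receptor of dorsal horn neurons. It spans chr5:76333495-76363788 on the minus strand (GRCm38, GENCODE M21), where it overlaps the plus-strand transcript 4930432L08Rik, itself at 30 core and 67 distal UMIs. No source used here says how strand entered the counting. In the distal library Nmu reached 20.04 CPM (14.3 to 27.3) in excitatory barcodes, 8.52 CPM (5.75 to 12.2) in inhibitory barcodes, 36.6 CPM (28.0 to 47.0) in neuron-marker barcodes and 46.2 CPM (37.1 to 56.9) in barcodes whose markers were mixed with neuron markers leading, against 8.20 CPM (5.40 to 11.9) in oligodendrocyte barcodes. Its inhibitory level lay within the counting error of the free-RNA level, and the 3 other neuronal levels stood above it. Excitatory over inhibitory, the distal ratio was 2.35 (1.43 to 3.91), and 1.88 with barcodes that opened both gates counted in both. At a common depth of 1000 UMIs, Nmu was in 2.25% of 445 excitatory nuclei (1.08% to 4.09%) and 1.14% of 790 inhibitory nuclei (0.522% to 2.15%), and these intervals overlap. It was in 3.53% of 708 neuron-marker nuclei (2.30% to 5.17%), against 0.594% of 1515 oligodendrocyte nuclei (0.272% to 1.12%). Thinning left out 32, 78, 140 and 419 shallower nuclei of these groups, and before it the shares were 6.29%, 2.88%, 5.31% and 1.40%, at median depths of 2726, 2899.5, 1645 and 1482 UMIs. The highest distal nucleus held 7 Nmu UMIs of 3685 and no transmitter UMI.

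In the core library Nmu was highest in mixed barcodes with neuron markers leading, at 13.9 CPM (6.02 to 27.5) from 8 UMIs. It stood at 4.94 CPM (2.63 to 8.45) in excitatory barcodes, 6.27 CPM (4.66 to 8.24) in inhibitory barcodes and 8.98 CPM (7.54 to 10.6) in neuron-marker barcodes, against 5.82 CPM in oligodendrocyte barcodes from 1 UMI. The core ratio of excitatory over inhibitory barcodes was 0.788 (0.393 to 1.47). Core over distal, Nmu was 0.247 (0.121 to 0.470) in excitatory, 0.735 (0.459 to 1.20) in inhibitory and 0.245 (0.18 to 0.337) in neuron-marker barcodes. The share of Nmu UMIs that lay in nuclei with 2 or more of them was 18.4% in the core library and 43.5% in the distal library.

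The profile of nuclei with 2 or more Nmu UMIs is given by the genes most like Nmu, chosen on both libraries, so that a high ratio in both is set by the choice. Ranked by the smaller of the 2 library ratios over other neuronal barcodes, among 381 genes with at least 20 UMIs in at least 10 of these nuclei in each library, the genes most like Nmu were Maml3, Trpm3 and Ebf2. Maml3, a coactivator of Notch signalling, was 3.89 times higher in the 19 core nuclei (3.19 to 4.69) and 3.53 times higher in the 51 distal nuclei (3.23 to 3.85). Trpm3, a heat-gated cation channel, was 3.29 times higher in the core nuclei and 3.77 times higher in the distal nuclei. Ebf2, a transcription factor of neuronal differentiation, had 1129 CPM against 261 CPM in the core library, a ratio of 4.32 (3.29 to 5.58), and 1240 CPM against 389 CPM in the distal library, a ratio of 3.19 (2.84 to 3.56). It was detected in 15 of 19 core and 48 of 51 distal nuclei. These nuclei were deeper than other neuronal ones, with medians of 1977 against 1415 UMIs in the core library and 3685 against 2335 in the distal library, and the ratios are of CPM.

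Of the 6 dorsal horn excitatory markers, Sox5 carried most of the difference in these nuclei. Their summed level was 2.28 times higher in core (1.74 to 2.93) and 2.95 times higher in distal nuclei with 2 or more Nmu UMIs (2.68 to 3.24). Sox5 gave 52 of 61 core UMIs and 401 of 465 distal UMIs of the list. The list was not particular to excitatory barcodes. Its distal sum was 797 CPM in excitatory and 387 CPM in inhibitory barcodes, but 770 CPM in 144 barcodes with astrocyte markers. In 40 barcodes with oligodendrocyte progenitor markers it was 1376 CPM. Core sums were 585 CPM in excitatory and 438 CPM in inhibitory barcodes. A higher sum alone therefore does not name the cell type. In the reverse comparison, Nmu was not enriched beyond counting error in nuclei with at least 3 of the 6 markers. Over the other neuronal barcodes it was at 1.04 times (0.561 to 1.79) in 260 core nuclei. In 214 distal nuclei it was at 1.14 times (0.809 to 1.57). Lmx1b, which specifies dorsal glutamatergic neurons, was 2.25 times higher in the distal nuclei (1.54 to 3.17), with 34 UMIs in 23 of 51 nuclei. Its core ratio was 1.86 (0.680 to 4.05) from 6 UMIs. Tlx3 and Prrxl1 were also higher in the distal nuclei, at 4.29 times (1.34 to 10.6) from 5 UMIs and 2.17 times (1.02 to 4.06) from 10. In the core nuclei they had 0 UMIs and 1 UMI. Maf was at 0.518 times (0.248 to 0.958) its level in other distal neuronal barcodes. Nmur2 was at 0.642 times there (0.207 to 1.51) and had 0 UMIs in the core nuclei. Slc17a6 was at 1.06 times the level of other distal neuronal barcodes (0.574 to 1.78), so the excitatory gate gene was not enriched in them beyond counting error, while the 4 inhibitory gate genes together were at 0.360 times (0.179 to 0.646). The 4 markers of cerebrospinal-fluid-contacting neurons were at 0.108 times (0.0294 to 0.277).

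**Figure D3:**
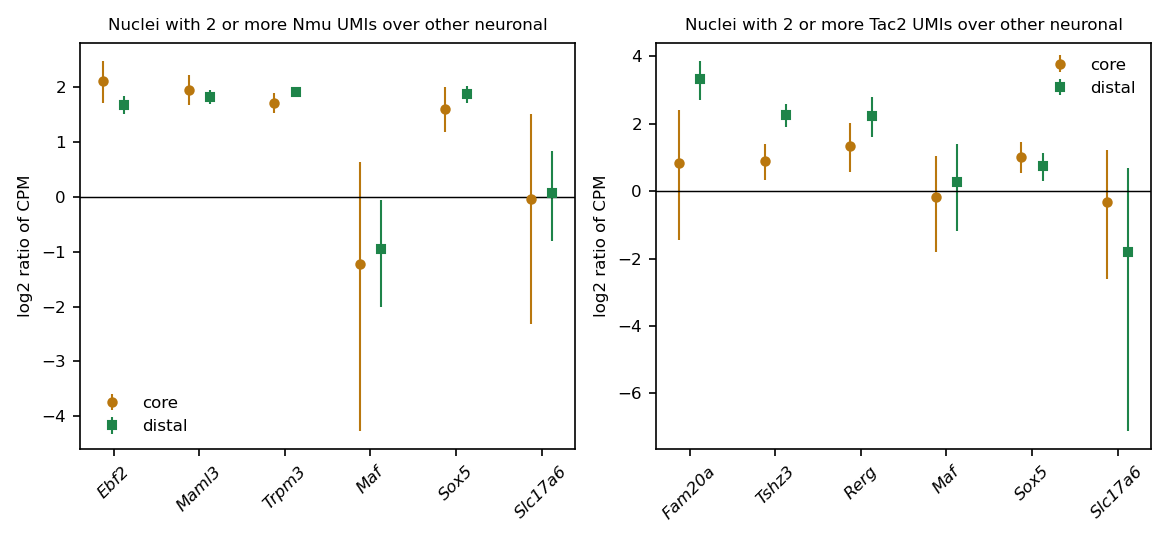
log2 ratio of CPM (vertical axis) in nuclei with 2 or more UMIs of Nmu (left) or Tac2 (right) over other neuronal barcodes of the same library, with exact 95% intervals from counting error. Ebf2, Maml3 and Trpm3 lie above 0 with Nmu in both libraries, which the rule that chose them sets, the marker Sox5 does so too, and distal Fam20a is highest with Tac2, at 9.96 times.

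After Nmu, the tachykinin genes Tac2 and Tac1 had the most distal nuclei with 2 or more UMIs, 17 and 12. Tac2, whose product acts on Tacr3, had 4.94 CPM in excitatory and 4.18 CPM in inhibitory core barcodes, and 11.02 CPM (6.91 to 16.7) in excitatory and 5.97 CPM (3.69 to 9.12) in inhibitory distal barcodes. Only the neuron-marker barcodes of the distal library, at 19.2 CPM (13.1 to 27.1), stood past 2-fold over the 7.59 CPM of distal oligodendrocyte barcodes among these 3 groups, with a ratio of 2.53 (1.45 to 4.45). Tac1, the substance P precursor, was at 8.36 CPM in excitatory and 6.63 CPM in inhibitory core barcodes, and at 9.02 CPM and 5.40 CPM in these groups of the distal library. It reached 20.4 CPM (14.1 to 28.5) in distal neuron-marker barcodes, against 7.29 CPM (4.67 to 10.8) in distal oligodendrocyte barcodes, a ratio of 2.80 (1.61 to 4.94). Distal unassigned barcodes came near these neuron-marker levels, at 19.2 CPM of Tac2 (10.2 to 32.8) and 17.7 CPM of Tac1 (9.15 to 30.9). For Nmu they stood lower than the neuron-marker barcodes, at 10.3 CPM (4.15 to 21.3). Excitatory over inhibitory ratios of Tac2 were 1.18 (0.573 to 2.30) in the core and 1.85 (0.969 to 3.53) in the distal library, and those of Tac1 were 1.26 (0.731 to 2.10) and 1.67 (0.827 to 3.36). All 4 intervals held 1.

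In the 16 distal neuronal nuclei with 2 or more Tac2 UMIs the leading gene was Fam20a. Among 560 qualifying genes the most like Tac2 were Fam20a, a pseudokinase of the secretory pathway, at 9.96 times the level of other neuronal barcodes (6.56 to 14.6), Tshz3, a zinc-finger transcription factor, at 4.81 times, and Rerg, a small GTPase, at 4.71 times. Fam20a had 28 UMIs in 14 of the 16 nuclei. In the 11 core nuclei, fewer than the 15 asked for by the rule, Fam20a was at 1.80 times (0.370 to 5.27) from 3 UMIs. Tac2 and Nmu met most often of the distal pairs of these genes, in 26 nuclei, which were 13.8% of the nuclei with Tac2 and 11.1% of those with Nmu. Nmu was in 3.14% of all distal barcodes and 4.71% of neuronal ones, and Tac2 in 2.53% and 3.30%. The pair shares were not matched for depth. In 0 nuclei did both have 2 or more UMIs, which says little, as only 17 nuclei of 7443 had that many of Tac2 and 51 of Nmu. Core nuclei with both numbered 8.

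Npy was the single distal gene past 2-fold towards inhibitory barcodes, on few UMIs. It had 3 UMIs (1.5 CPM) in excitatory and 18 UMIs (5.11 CPM) in inhibitory distal barcodes, a ratio of 0.294 (0.0554 to 1.01). With barcodes that opened both gates counted in both, the sums were 13 and 28 UMIs and the ratio 0.704, short of 2-fold. Distal oligodendrocyte barcodes stood at 4.56 CPM (2.55 to 7.51), level with the inhibitory ones. In the core library it had 3.04 CPM in excitatory and 3.69 CPM in inhibitory barcodes, a ratio of 0.825 (0.327 to 1.84). A distal nucleus of 19977 UMIs held 7 Npy UMIs, 1 Slc17a6 UMI and 4 UMIs of the inhibitory gate genes, and the next highest nucleus held 4. Among neuronal distal barcodes, the 40 with Npy had 1.56 times the summed inhibitory gate genes of those without it (1.14 to 2.09), and the 106 in the core library had 1.03 times (0.770 to 1.36). Gal, the galanin gene, had 1.90 CPM in excitatory and 0.491 CPM in inhibitory core barcodes, and 1.002 CPM and 1.99 CPM in these distal groups, and under 20 UMIs stood behind each comparison between excitatory and inhibitory barcodes.

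Sst, encoding somatostatin, had the most UMIs of the genes in the core library, 282 against 280 of Tac1, and in the distal library it was no higher in excitatory or inhibitory barcodes than in oligodendrocyte barcodes. It stood at 11.02 CPM (7.38 to 15.8) in excitatory and 6.63 CPM (4.98 to 8.66) in inhibitory core barcodes, a ratio of 1.66 (1.02 to 2.66). In the distal library it stood at 11.5 CPM (7.30 to 17.3) in excitatory and 13.4 CPM (9.81 to 17.8) in inhibitory barcodes, a ratio of 0.863 (0.50 to 1.45), and the highest of the distal levels compared was the 18.2 CPM (13.9 to 23.5) of oligodendrocyte barcodes. Per kilobase of its gene span, which at 1.386 kb is the shortest, Sst was the highest gene, at 6.56 CPM per kb in core and 9.50 CPM per kb in distal neuronal barcodes. Tac2 came next, at 0.969 and 1.51 CPM per kb, and Calca was at 0.157 and 0.606 CPM per kb. In a 3′ library counts do not scale plainly with gene length, so this order is a description.

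Cck, encoding cholecystokinin, was the single gene past 2-fold between excitatory and inhibitory core barcodes. It had 17 UMIs (6.46 CPM) in excitatory and 21 UMIs (2.58 CPM) in inhibitory core barcodes, a ratio of 2.50 (1.24 to 4.98), and no excitatory nucleus held more than 1. With barcodes that opened both gates counted in both, the ratio was 1.98, short of 2-fold. In the distal library it had 7.51 CPM in excitatory and 4.55 CPM in inhibitory barcodes, a ratio of 1.65 (0.761 to 3.57), and 6.99 CPM (4.43 to 10.5) in oligodendrocyte barcodes. Nts, encoding neurotensin, had 3.04 CPM in excitatory and 1.72 CPM in inhibitory core barcodes, a ratio of 1.77 (0.642 to 4.51), and 4.51 CPM and 6.82 CPM in these distal groups, a ratio of 0.661 (0.270 to 1.47), against 6.07 CPM (3.71 to 9.38) in distal oligodendrocyte barcodes. Grp, encoding gastrin-releasing peptide and carried on the plus strand of chromosome 18, had 2.28 CPM in excitatory and 1.84 CPM in inhibitory core barcodes, and 3.51 CPM and 2.56 CPM in these distal groups. Distal oligodendrocyte barcodes held 3 Grp UMIs (0.911 CPM), and neuron-marker over oligodendrocyte barcodes the ratio was 5.27 (1.27 to 30.9) from 8 and 3 UMIs.

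By the 2-fold rule, which asked for at least 20 UMIs over both sums, 1 of 8 genes in the core library was higher in excitatory than in inhibitory barcodes (Cck) and 0 were lower, where 3.42% of all genes passed in either direction, 1.05% higher and 2.37% lower. In the distal library 1 of 7 was higher (Nmu) and 1 was lower (Npy), where 3.86% of all genes passed, 1.56% higher and 2.29% lower. The median log2 ratio was 0.32 over the core genes and 0.73 over the distal genes, against -0.02 over all genes in both libraries. Both gates open at 1 UMI, and distal excitatory and inhibitory barcodes held oligodendrocyte markers at 0.367 and 0.352 times the level of oligodendrocyte barcodes. The part of this in the ratios was not tested. Of the receptors, Ntsr1, a neurotensin receptor, was past 2-fold in the core library, with 3.04 CPM in excitatory and 6.88 CPM in inhibitory barcodes, a ratio of 0.442 (0.182 to 0.932).

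Calca was scarce and lay partly in nuclei with markers of neurons outside the dorsal horn. It had 1 UMI in excitatory and 4 in inhibitory core barcodes, and 5 and 10 UMIs in these distal groups, at 2.50 and 2.84 CPM against 3.04 CPM (1.46 to 5.59) in distal oligodendrocyte barcodes. The 34 distal neuronal nuclei with Calca had 119 CPM of the 8 sensory ganglion markers, against 6.67 CPM in those without it, a ratio of 17.9 (10.6 to 29.1) from 21 UMIs in 5 nuclei, 9 of them in 1 nucleus. They had 165 CPM of the 6 cholinergic motor markers, against 15.1 CPM, a ratio of 10.9 (7.12 to 16.1) from 29 UMIs in 8 nuclei, 16 of them in 1 nucleus. The 2 ratios can share nuclei. Prph had the most UMIs of the motor list in the distal library, 118, and the 29 UMIs were not split by gene. The distal nucleus with 4 Calca UMIs, the most, held 3 UMIs of the sensory list and 1 of the motor list, which was of Prph. In the distal library 2 nuclei had at least 3 sensory ganglion markers and both held 1 Calca UMI, and in the core library 0 nuclei had that many.

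Among the genes that process and store peptides, Pcsk2 and its partners stood above the free-RNA level of the distal library. Oligodendrocyte barcodes had to lack transmitter UMIs and hold under 3 neuron markers. Ratios of neuronal genes to that level are therefore partly set by the choice of groups. In distal excitatory, inhibitory and neuron-marker barcodes, 6, 7 and 8 of the 12 processing and secretion genes were more than 2-fold higher than in oligodendrocyte barcodes, where 14.3%, 15.2% and 16.9% of all genes were, and 0 were more than 2-fold lower. Pcsk2, a convertase that cuts precursors, was at 394 CPM in excitatory and 307 CPM in inhibitory barcodes, against 88.1 CPM in oligodendrocyte barcodes, ratios of 4.47 (3.90 to 5.13) and 3.49 (3.06 to 3.98). Pcsk1, its partner convertase, was 3.97 times higher in excitatory barcodes, and Chga, the vesicle protein chromogranin A, was 3.59 times higher in inhibitory barcodes. In neuron-marker barcodes the leading ones were Pcsk2 at 6.46 times and Cadps2, a priming factor of dense-core vesicles, at 4.17 times. Of the peptide genes themselves 1 of 6 (Nmu), 0 of 8 and 3 of 7 (Nmu, Tac1 and Tac2) were higher in these 3 comparisons and 0 were lower, where 24%, 23.8% and 33.1% of all genes passed in either direction and 9.8%, 8.54% and 16.2% were lower.

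Several receptors stood above the free-RNA level, with the same limit from the choice of groups. Of those with enough UMIs, 4 of 8 were more than 2-fold higher in distal excitatory, 4 of 9 in inhibitory and 7 of 10 in neuron-marker barcodes than in oligodendrocyte barcodes, where 14.3%, 15.2% and 16.9% of all genes were. Tacr1, the substance P receptor, was at 31.6 CPM in excitatory and 25.3 CPM in inhibitory barcodes, against 3.34 CPM in oligodendrocyte barcodes, ratios of 9.45 (4.94 to 19.9) and 7.57 (4.03 to 15.7). Tacr3, the neurokinin B receptor, was 6.09 times higher in excitatory and 9.58 times higher in neuron-marker barcodes. Cckbr, a receptor of cholecystokinin, was 4.16 times higher in inhibitory barcodes. Ramp1, a subunit of the receptor for the Calca peptide, went the other way, with 4.8 CPM in neuron-marker and 17.0 CPM in oligodendrocyte barcodes, a ratio of 0.282 (0.116 to 0.596). Of other nonopioid peptide genes, Adcyap1 was 2.04 times higher in excitatory and 3.6 times higher in neuron-marker barcodes.

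**Figure D4:**
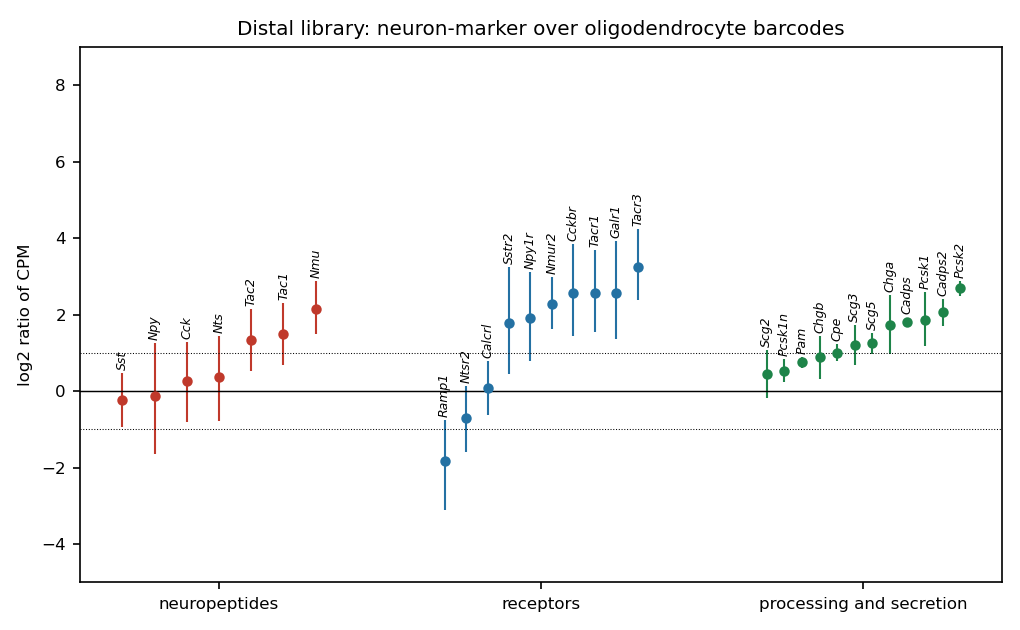
log2 ratio of CPM (vertical axis) in neuron-marker over oligodendrocyte barcodes of the distal library for the neuropeptides, their receptors and processing and secretion genes with at least 20 UMIs over both sums, with exact 95% intervals from counting error and dotted lines at 2-fold. Nmu, Tac1 and Tac2 lie above 2-fold, while Sst and Npy lie below 0, with intervals that hold it.

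Between the libraries, peptides past 2-fold were lower in the core in each neuronal group. In excitatory barcodes 2 of 5 genes were lower, Nmu at 0.247 times and Tac2 at 0.448 times (0.207 to 0.930, and 0.531 with barcodes of both gates counted in both), and 0 were higher, where 15.9% of all genes passed in either direction, 3.45% higher and 12.4% lower. In inhibitory barcodes 2 of 8 were lower, Nts at 0.252 times (0.121 to 0.508) and Sst at 0.497 times (0.330 to 0.751), where 15.7% of all genes passed, 2.57% higher and 13.2% lower. The distal inhibitory levels of both genes lay within the counting error of, or below, those of distal oligodendrocyte barcodes. The oligodendrocyte marker sum was 354 CPM in core and 3508 CPM in distal inhibitory barcodes, and its part in these ratios was not tested. Without barcodes that carry glial markers, Sst was at 0.326 times, and Nts was at 0.132 times from 9 core and 6 distal UMIs, under the minimum of 20. In neuron-marker barcodes 4 of 10 were lower, where 16.5% of all genes passed, 5.32% higher and 11.2% lower. These were Nmu, Tac2 at 0.488 times (0.331 to 0.740), Grp at 0.423 times (0.190 to 1.06) and Calca at 0.158 times (0.0623 to 0.418). The median log2 ratio of the genes was -0.22, -0.49 and -0.91 in these 3 groups, against -0.08, -0.11 and -0.08 over all genes. Relative to the all-gene median, Sst was at 0.537 times in inhibitory barcodes and Tac2 at 0.515 times in neuron-marker barcodes, both short of 2-fold, which leaves 1 and 3 genes lower in these groups.

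**Figure D5:**
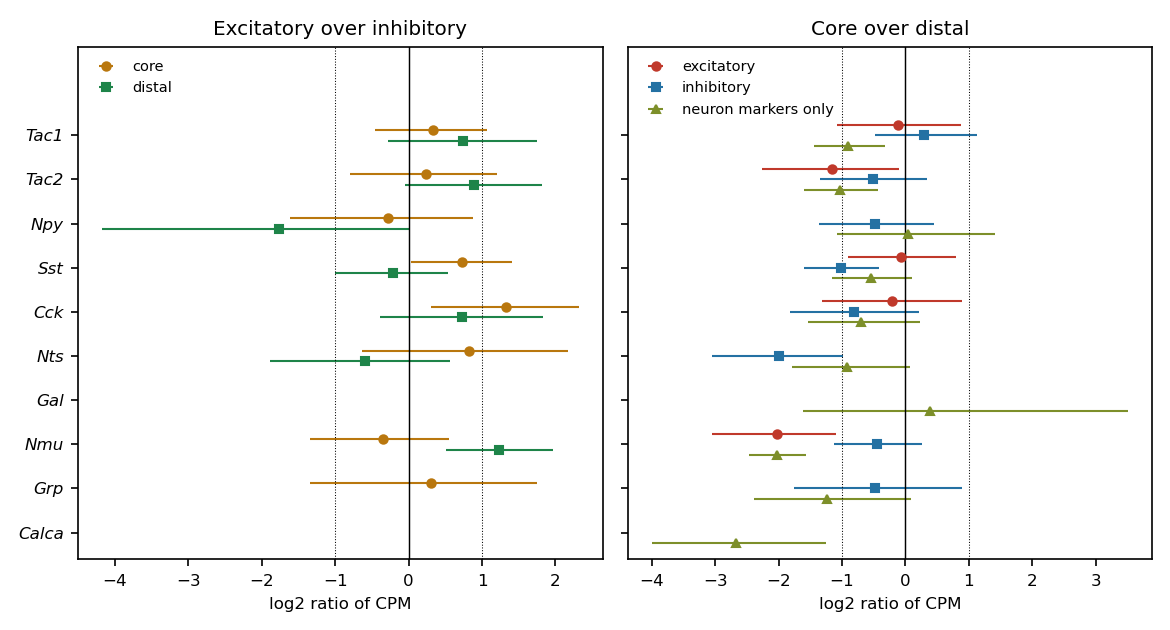
log2 ratio of CPM (horizontal axis) for each gene with at least 20 UMIs over both sums, excitatory over inhibitory in each library (left) and core over distal in 3 barcode groups (right), with exact 95% intervals from counting error and dotted lines at 2-fold. Nmu lies below -2 on the log2 scale in core over distal excitatory and neuron-marker barcodes.

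Of the receptors, 2 of 10 were higher and 4 lower in core than in distal excitatory barcodes, and 0 of 12 processing genes passed in either direction, where 3.45% of all genes were higher and 12.4% lower. Tacr1 was at 71.8 CPM in core and 31.6 CPM in distal excitatory barcodes, a ratio of 2.28 (1.70 to 3.08), and Cckbr at 17.1 and 6.51 CPM, a ratio of 2.63 (1.39 to 5.31). Ramp1, at 0.760 and 18.5 CPM, had a ratio of 0.041 (0.00479 to 0.159), and Ntsr2, another neurotensin receptor, one of 0.160 (0.0395 to 0.481). The oligodendrocyte marker sum in these barcodes, 339 CPM in core against 3656 CPM in distal ones, moves with Ramp1, and its part in the result was not tested. Nmur2 was at 17.9 CPM in core and 39.1 CPM in distal excitatory barcodes, a ratio of 0.457 (0.311 to 0.665). Its ratio was 0.465 (0.357 to 0.614) in neuron-marker barcodes and 0.751 (0.571 to 0.995) in inhibitory barcodes, at 17.9 CPM in core and 23.9 CPM in distal ones. In inhibitory barcodes Ntsr1 was 2.02 times higher in the core (1.07 to 4.14), while Ntsr2 was at 0.0988 times and Ramp1 at 0.110 times. In neuron-marker barcodes Ntsr1, with 63 core UMIs and 1 distal UMI, had a ratio of 6.88 (1.19 to 276), and Sstr3, a somatostatin receptor with 38 core UMIs and 1 distal UMI, one of 4.15 (0.701 to 168). Ntsr2 at 0.150 times and Galr1, a galanin receptor, at 0.264 times were the lowest there. Of the other nonopioid peptide genes in these barcodes, Adcyap1 had 7.67 CPM in core and 18.6 CPM in distal ones, a ratio of 0.412 (0.275 to 0.633), and Nms had 28 core UMIs and 0 distal UMIs.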

How the data were processed

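Raw UMI counts per gene and barcode, not normalized, were deposited by the authors and written by Cell Ranger 7.1.0, per the file headers. The submitters' processing notes name Cell Ranger, Seurat, GRCh38 and mm10 without a role for each, and no source used here gives the annotation. A minimum of 300 genes and a limit of 5% mitochondrial UMIs removed 2 core and 9 distal barcodes. No doublet caller was run, so doublets were left in. Marker groups asked for at least 3 genes of 1 of 8 cell type lists. UMIs were summed per library and group and divided by the group's total. Sums carry exact Poisson, shares Clopper-Pearson and ratios exact conditional 95% intervals. Genes past 2-fold with at least 20 UMIs over both sums were counted. Gene positions are from GENCODE M21. On simulated Poisson counts with known changes in 200 genes, all larger than 2-fold, 97.5% of them were recovered in both libraries. Recovery of changes near 2-fold was not measured. Alternatives covered the gate, barcodes of both gates, thinning to 1000 UMIs, filters, scaling, the UMI minimum, glial markers and shared barcodes. The members and lists were chosen with earlier results of these data known. The comparisons with neuron-marker and oligodendrocyte barcodes, the split of mixed barcodes and the alternative of at least 2000 UMIs were added after seeing the data. All 10 genes are named. From the other lists at most 2 genes per direction and comparison were named, those with the largest ratios past 2-fold, apart from Nmur2, which was chosen after its values were seen. Genes most like a member were the 3 with the highest ratio of CPM, where at least 15 neuronal nuclei had 2 or more UMIs. Sox5, Lmx1b, Maf and, in nuclei with Nmu, Tlx3, Prrxl1 and Nmur2 are described as members of the dorsal horn list. Python 3.11.15, numpy 2.4.6, scipy 1.17.1, pandas 2.3.3 and matplotlib 3.10.9 were used.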

Additional observations from a re-analysis of the deposited data

Results flagged for a closer look

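For 3 genes the ratio of excitatory over inhibitory barcodes lay on opposite sides of 1 in the core and distal libraries. Sst was at 1.66 in the core library and 0.863 in the distal library. Nts was at 1.77 in the core library and 0.661 in the distal library. Nmu was at 0.788 in the core library and 2.35 in the distal library. With 1 library per region, the difference was not tested for any of them.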

How the results depend on the processing

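No paired analysis was possible because each library is the only one of its region. The counts of genes past 2-fold were 1 (core) and 2 (distal) for excitatory over inhibitory barcodes, and 2 (excitatory) and 2 (inhibitory) for core over distal. A gate of 2 or more UMIs gave 0, 0 and 0 for the first 3 of these, with 1, 0 and 0 genes at the UMI minimum on 132 core and 71 distal excitatory barcodes. The ratios there were 2.56 for core Cck, 3.87 and 0.463 for distal Nmu and Npy, and 0.2475 and 0.835 for Nmu and Tac2 core over distal. Counting barcodes of both gates in both gave 0, 0 and, in inhibitory barcodes, 1 (Nts), with Sst at 0.513. The count of 2 in excitatory core over distal then held Nts and Nmu, and Tac2 was at 0.531. Thinning to 1000 UMIs gave 0 in all 4, with at most 1 gene at the minimum, since fewer UMIs remain. No minimum of UMIs gave 2 in core excitatory over inhibitory, 4 in excitatory and 4 in inhibitory core over distal. A minimum of 50 UMIs gave 0, 1, 1 and 1. Leaving out barcodes with glial markers gave 1 in the distal excitatory over inhibitory comparison and 1 in both core over distal comparisons. Median-ratio scaling gave 1 in inhibitory core over distal. Of 307 values of single genes, 287 stayed within their interval and 20 moved past it, and none of the called ones changed side of 1. The 287 include values that could not move, since a change of the UMI minimum leaves each ratio as it was. The count is therefore no measure of how firm the ratios are. The distal Nmu ratio of excitatory over inhibitory stayed above 1 in all 11 alternatives, at 1.72 to 5.60, where 1.72 came from 3 and 3 UMIs after thinning. Core over distal in excitatory barcodes, the Nmu ratio stayed below 1, at 0.0932 to 0.519, where 0.519 came from 4 and 3 UMIs after thinning. The core Cck ratio ranged over 1.98 to 2.74. Few UMIs stood behind most sums, so smaller differences were not detectable at this depth.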
